A study of Mus musculus with 6 samples.

Results

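The genes described here are 44 components of the transforming growth factor-β (TGF-β) and bone morphogenetic protein (BMP) pathways, and the question was whether the open chromatin around them differed in oviduct muscle cells lacking Pbrm1. They were taken from a fixed list of 16 ligands, 13 receptors and co-receptors, 8 Smads, 4 secreted antagonists and 3 latent binding proteins. A region belonged to a gene when it overlapped the gene body or the 10 kb on either side (GENCODE M21, mm10). Of the 66679 open regions of the whole series, 275 met this rule, and none lay in the window of more than 1 member. Every one of the 44 genes had at least 1 region.

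Chromatin accessibility was measured by ATAC-seq, in which the Tn5 transposase inserts sequencing adapters into open DNA. The cells were primary oviductal muscle cells, plated for a few hours after digestion of the oviduct, from mice of 8 to 12 weeks on day 2 of pregnancy, with 50000 cells in each library. The 3 control libraries carry the label WT, although the study's methods describe littermate controls homozygous for the floxed allele (Pbrm1 fl/fl). The 3 Pbrm1 cKO libraries came from mice that carried the same floxed alleles and PR-IRES-cre, so that the progesterone receptor promoter drove the deletion in all cells of the reproductive tract that had used it. PBRM1 is a subunit of a SWI/SNF complex, which moves nucleosomes with the energy of ATP.

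TGF-β family ligands are secreted dimers that bring type I and type II receptor kinases together at the cell surface. The type I receptor then phosphorylates a receptor-regulated Smad: SMAD2 and SMAD3 for TGF-βs and activins, SMAD1, SMAD5 and SMAD9 for BMPs. These join SMAD4 and bind DNA, while SMAD6 and SMAD7 inhibit the receptors. In smooth muscle the TGF-β branch is known for inducing contractile genes and matrix.

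The deposited files held peak lists and no read counts. A relaxed list was available for each library and for each genotype 1 conservative list, filtered at 0.05 by the irreproducible discovery rate (IDR) between replicates. Which replicates entered a conservative list is not given in the sources used here, and it was treated as standing for the whole genotype. Each library ranked the 66679 regions by the best −log10 p of its own entries, so that rank 1 was the strongest region. The rank score was log2(number of regions/rank), and genotypes were compared with limma over all regions with Benjamini-Hochberg adjustment at 0.05. Because ranks are relative, a shift common to every region could not be seen. WT library 3 was the shallowest by this evidence, with a median of 8 tags per listed summit against 12 to 14 in the others. Of 8 smooth muscle marker genes, 7 had a region within 1 kb of an annotated start, and Actg2 had none. The same count was 1 of 8 for epithelial markers (Foxj1, of ciliated cells), 4 of 6 for endothelial, 1 of 7 for immune and 3 of 6 for fibroblast markers. None of the marker lists held a region that passed the test, but under the normal scores introduced below 1 region near the endothelial gene Emcn was lower in Pbrm1 cKO (adjusted p = 0.0404, limma). The share of non-muscle cells in the libraries was not tested.

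Most of the pathway's open chromatin was listed in both genotypes. Of the 275 regions, 199 (72.4%) were in both conservative lists, 49 (17.8%) in the Pbrm1 cKO list only and 27 (9.82%) in the WT list only, against 69.2%, 17.4% and 13.4% of all regions. Being in 1 list was not absence from the other genotype: 26 of the 27 WT-only regions had an entry in all 3 Pbrm1 cKO libraries, and 38 of the 49 cKO-only regions had one in all 3 WT libraries. No region in 1 list lacked an entry in every library of the other genotype. A region in 1 list had entered the tested set through the genotype that called it, which favours a higher rank there. Of the 49 cKO-only regions 38 ranked higher in Pbrm1 cKO, and of the 27 WT-only regions 21 ranked lower. The 275 regions were mainly intronic, with 141 in introns, 60 within 1 kb of an annotated start of the member, 19 overlapping exons and 55 in the flanking 10 kb. For 98 of them the nearest annotated start was that of another gene.

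**Figure D1:**
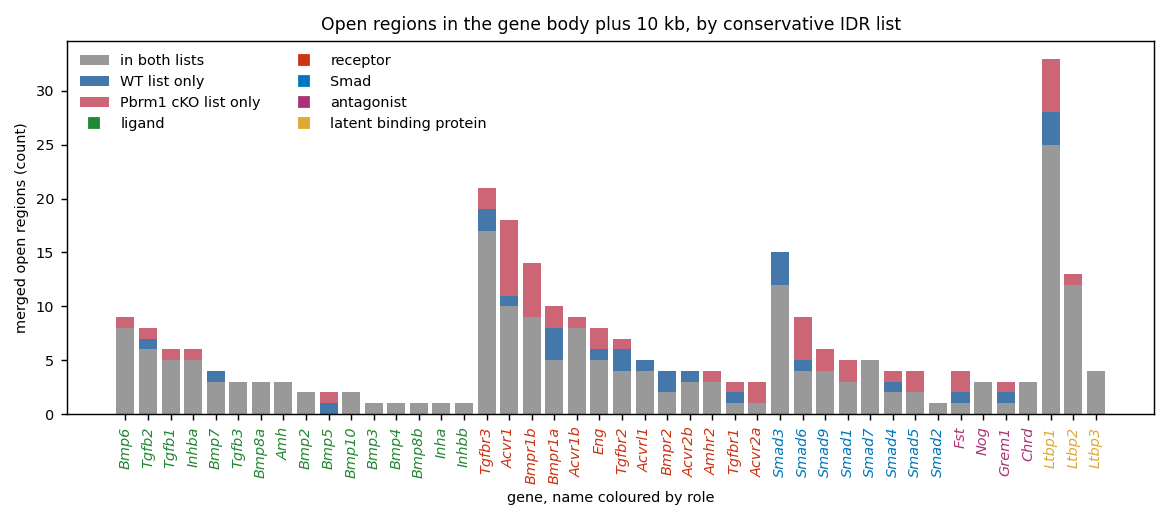
Bars give the number of merged open regions in the body plus 10 kb of each of the 44 genes, stacked by the conservative list that held them, and gene names are coloured by role. Ltbp1 had 33 regions and 6 genes had 1, and regions in the Pbrm1 cKO list only were most numerous at Acvr1, where there were 7.

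Few differences between the genotypes stood out across the pathway. Only 1 of the 275 regions passed the test, against 0.0675% of all regions (0.039% higher and 0.0285% lower in Pbrm1 cKO), and it was a higher region in an intron of Bmpr1a. An unadjusted p under 0.05 was found for 41 regions (14.9%), 23 with the higher rank in Pbrm1 cKO and 18 with the lower, while 15.9% of all regions had such a p (7.51% higher and 8.37% lower). The ranks of the genotypes did not overlap at 48 regions (17.5%), against 21.5% of all regions. Both shares were near or below the background. The median difference in rank score was 0.05 for the 275 regions and 0.00055 for all regions.

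**Figure D2:**
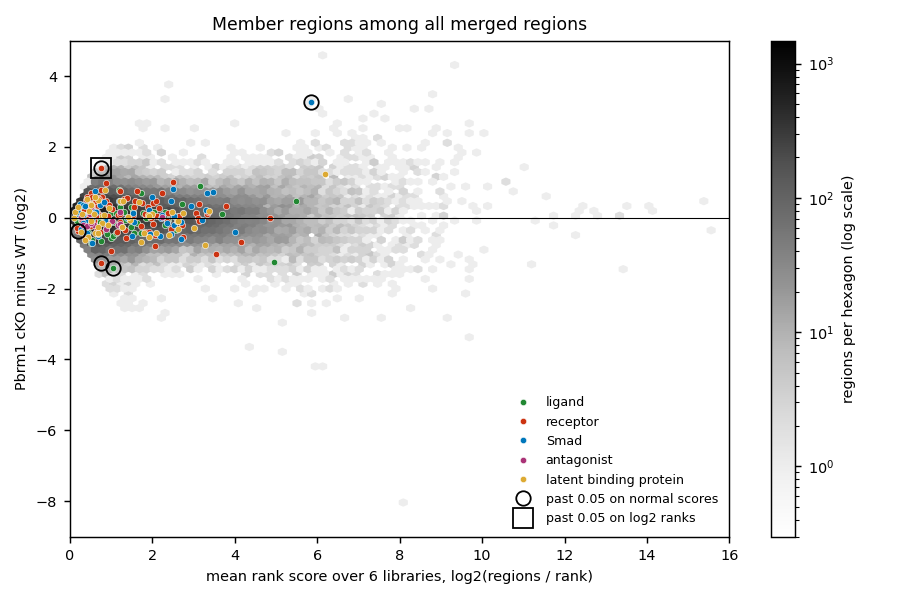
Each grey hexagon counts regions of the whole series by mean rank score (log2, x axis) and by the difference Pbrm1 cKO minus WT (log2, y axis), and coloured points are the 275 pathway regions by role. The square marks the Bmpr1a region past 0.05 on log2 ranks at a difference of 1.40, and the circle at the top is the Smad2 start region at 3.28.

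By role, the receptors had 110 regions with a median difference of 0.09, and 72 (65.5%) ranked higher in Pbrm1 cKO, against 50% of all regions. Of the 110, 24 were in the Pbrm1 cKO list only and 14 in the WT list only, and this selection enters the share. The other roles were nearer to an even split or leaned the other way. Smads had 49 regions with a median of 0.06, and latent binding proteins 50 with a median of 0.04. Ligands had 53 regions with a median of -0.05, and antagonists 13 with a median of -0.15. Each of these medians was close to or below the spread between libraries, which was 0.08 for receptors, 0.09 for Smads, 0.14 for latent binding proteins, 0.18 for ligands and 0.29 for antagonists (SD of the library medians within genotypes, n = 3 each). Over the alternatives tried the receptor median stayed between 0.07 and 0.15, while the medians of the other roles took both signs under at least 1 alternative.

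Bmpr1a, a type I receptor for BMPs, had 10 regions, and they moved in opposite directions. The one that passed the test lay 62.8 kb into the gene, at chr14:34440244-34440924, and was in the Pbrm1 cKO list only. It ranked 65810, 62731 and 63416 in the WT libraries and 21486, 28941 and 23071 in the Pbrm1 cKO libraries. It stood near the bottom of all WT lists and in the upper part of all Pbrm1 cKO lists, with no overlap. The −log10 p of the same summits was 3.25, 6.55 and 2.22 in WT and 35.1, 23.1 and 28.1 in Pbrm1 cKO. These corresponded to 6, 9 and 4 tags against 38, 26 and 32 tags which also did not overlap. The rank score rose by 1.40 ± 0.25 (SE, n = 3 per genotype, adjusted p = 0.0452, limma). The region was tested only because the Pbrm1 cKO list called it, so its selection favoured this difference. The call was lost when any 1 library was left out, with adjusted p from 0.0752 to 0.165.

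A second Bmpr1a region, 55.5 kb into the gene at chr14:34447697-34447984, was in the WT list only. Its 288 bases held the whole of a 207-base exon. It ranked 20876, 28898 and 27912 in WT and 62784, 61724 and 60240 in Pbrm1 cKO, the reverse of its neighbour. The difference of -1.26 ± 0.25 did not pass (adjusted p = 0.0721, limma). Another, at chr14:34483491-34484109, was also in the WT list only. It ranked 53096, 41472 and 59996 in WT and 64966, 65658 and 66371 in Pbrm1 cKO, where 1 library had no entry at all (difference -0.37 ± 0.13, adjusted p = 0.199, limma). The Bmpr1a start region, at chr14:34502446-34503457, ranked 18586, 18032 and 7093 in WT and 10835, 13076 and 12519 in Pbrm1 cKO. There the genotypes overlapped (difference 0.14 ± 0.39, adjusted p = 0.902).

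**Figure D3:**
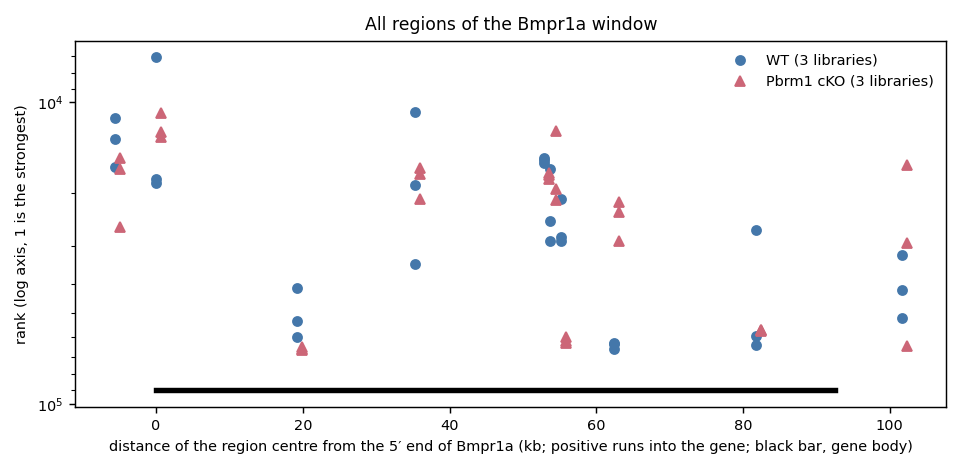
Ranks of the 10 regions of the Bmpr1a window in each library (log y axis, strongest at the top) against the distance of the region from the 5′ end of the gene (kb), with circles for WT, triangles for Pbrm1 cKO and a black bar for the gene body. The genotypes are furthest apart at 62.8 kb, where Pbrm1 cKO ranks higher, and at 55.5 kb, where WT does, while at the start they overlap.

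Bmpr1a lies 3.29 Mb from Pbrm1 on chromosome 14, and the Bmp4 gene 15.3 Mb from it. Within 5 Mb of Pbrm1, 2 of 321 regions (0.623%) passed the test, and within 20 Mb 4 of 991 (0.404%), against 0.0675% of all regions. Both counts include the Bmpr1a region that passed. If the controls were WT as labelled, alleles linked to the floxed Pbrm1 allele and loss of PBRM1 cannot be told apart at Bmpr1a with these libraries. If they were littermates homozygous for the floxed allele, as the methods describe, both genotypes carried that allele. Differences in linked alleles were not tested. The reference sequence around the centre of both intronic regions is shown because they are the only intronic regions of the pathway's receptors that passed on either scale. Each run has 300 bases of the + strand of GRCm38.p6, chr14:34440434-34440733 and chr14:34483650-34483949. Capitals mark CAGAC or its reverse complement GTCTG, the short element that Smads bind. They also mark TGANTCA, a looser form of the AP-1 site TGA(C/G)TCA.
Bmpr1a +62.8 kb: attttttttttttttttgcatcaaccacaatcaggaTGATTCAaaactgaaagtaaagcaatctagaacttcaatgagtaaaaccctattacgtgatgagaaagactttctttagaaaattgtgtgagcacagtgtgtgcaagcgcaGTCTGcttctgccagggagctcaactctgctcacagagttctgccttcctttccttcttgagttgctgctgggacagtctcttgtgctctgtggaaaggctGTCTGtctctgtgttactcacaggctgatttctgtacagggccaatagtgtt
Bmpr1a +19.5 kb: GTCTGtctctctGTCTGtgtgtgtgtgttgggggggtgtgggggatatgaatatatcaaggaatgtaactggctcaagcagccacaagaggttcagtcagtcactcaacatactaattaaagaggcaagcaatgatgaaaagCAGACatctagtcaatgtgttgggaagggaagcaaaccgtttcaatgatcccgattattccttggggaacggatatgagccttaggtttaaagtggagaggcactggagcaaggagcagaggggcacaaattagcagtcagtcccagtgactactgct
The first run held 2 copies of the Smad element and 1 TGANTCA match, TGATTCA, and the second 3 copies and none. Such matches were common, since 56.2% of the central 300 bases of all regions held CAGAC on either strand and 33.5% held TGANTCA. The shares among the 275 pathway regions were 59.3% and 33.5%.

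The Bmp6 gene, which encodes a BMP ligand, had 9 regions, and 1 of them stood apart. It lay in an intron 106 kb into the gene, at chr13:38450382-38451282, and the start nearest to it was that of 4930579J19Rik. It ranked 18826, 17856 and 23518 in WT and 59014, 51430 and 48352 in Pbrm1 cKO, and −log10 p was 33.2, 32.2 and 14.4 against 10.5, 12.1 and 12.2. WT library 3, the shallow one, was the WT library nearest to Pbrm1 cKO on both measures. The difference was -1.40 ± 0.30 (adjusted p = 0.0784, limma). The other 8 regions of the gene differed by -0.51 to 0.17 and included the start region, at 0.05 ± 0.35. The central 300 bases of the intronic region, chr13:38450682-38450981 on the + strand, are shown as the ligand sequence with the largest difference. They held neither motif, so no base is in capitals.
Bmp6 +106 kb: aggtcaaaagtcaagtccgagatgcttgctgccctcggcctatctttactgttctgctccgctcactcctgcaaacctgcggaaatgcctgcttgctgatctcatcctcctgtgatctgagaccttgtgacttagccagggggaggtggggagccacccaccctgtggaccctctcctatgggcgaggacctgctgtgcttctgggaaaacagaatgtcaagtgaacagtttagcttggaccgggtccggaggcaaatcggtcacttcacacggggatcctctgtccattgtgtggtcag

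The outcome of the test depended on the scale of the ranks. When ranks were turned into normal scores, which spread both ends of the list evenly, 1552 regions (2.33%) passed in the whole series, 0.993% higher and 1.33% lower, and 5 (1.82%) among the 275. The 5 were the Bmpr1a regions at +62.8 kb (higher, adjusted p = 0.00314), +55.5 kb (lower, 0.00934) and +19.5 kb (lower, 0.0371), the Smad2 start (higher, 0.0110) and the Bmp6 intron (lower, 0.0119). All 3 at Bmpr1a are on the chromosome of Pbrm1, and each was in only 1 conservative list, that of the genotype where it ranked higher. On this scale 19 of 321 regions within 5 Mb of Pbrm1 (5.92%) passed, and 47 of 991 within 20 Mb (4.74%). Both counts include the regions at Bmpr1a. Without Bmpr1a 2 of 265 regions (0.755%) passed. With 1 library left out in turn, the +62.8 kb region passed in 6 of 6 fits on normal scores, the Smad2 start and the +55.5 kb region in 4 each, the Bmp6 intron in 3 and the +19.5 kb region in 1.

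**Figure D4:**
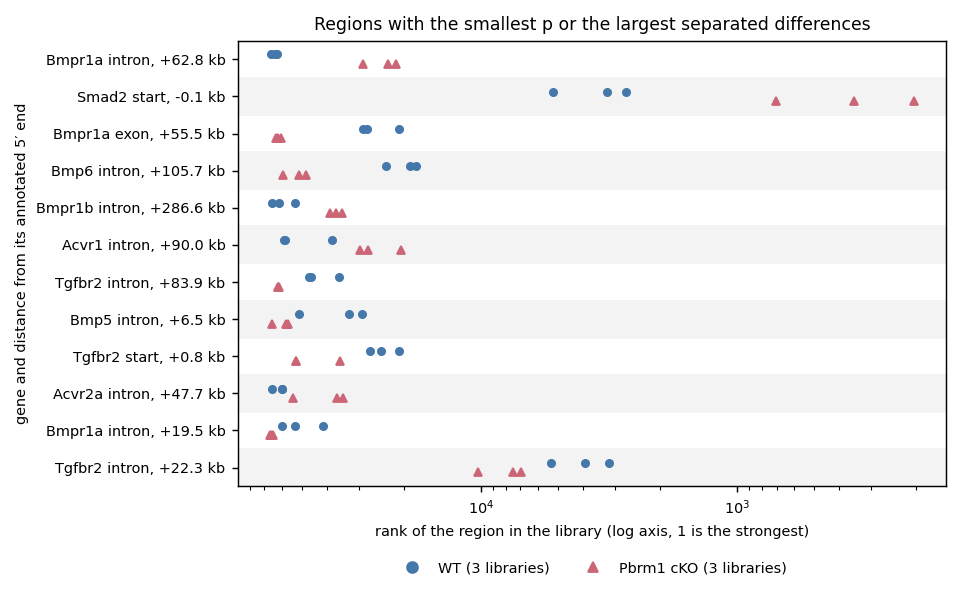
Ranks in each library (log x axis, strongest to the right) of the 12 regions with the smallest p, the largest separated differences or a call on normal scores, labelled by gene and distance of the region centre from the 5′ end. In each of the 12 the circles (WT) and triangles (Pbrm1 cKO) do not overlap, with the widest gap at the Smad2 start.

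None of the other receptor regions passed on either scale. An intronic region of Bmpr1b, another BMP type I receptor, ranked 61327, 53013 and 65147 in WT, where library 3 had no entry, and 38690, 34814 and 36652 in Pbrm1 cKO (chr3:141882586-141883147, difference 0.70 ± 0.19, adjusted p = 0.111, limma). An intronic region of Acvr1, the type I receptor also called ALK2, ranked 58493, 38166 and 58044 in WT and 27478, 29646 and 20533 in Pbrm1 cKO (chr2:58477078-58477272, 0.98 ± 0.30, adjusted p = 0.132). Both of these regions were in the Pbrm1 cKO list only. At both genes more regions ranked higher in Pbrm1 cKO than lower. At Acvr1, 15 of 18 regions ranked higher in Pbrm1 cKO, 7 were in the Pbrm1 cKO list only and 1 in the WT list only. At Bmpr1b these numbers were 11 of 14, 5 and 0. Regions called in Pbrm1 cKO alone tend to rank higher there through their selection, so the sign and list counts do not support each other. Neighbouring regions of 1 gene share their libraries and are not replicates. The 3 regions of Acvr2a, an activin type II receptor, all ranked higher in Pbrm1 cKO, by 0.42 to 0.59, and 2 were in the Pbrm1 cKO list only.

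Tgfbr2, the type II receptor for TGF-βs, held the strongest intronic region of the receptors, and that region ranked higher in WT. Of the 7 regions of the gene, 4 ranked lower in Pbrm1 cKO and 3 higher. The region at chr9:116152697-116153462, 22.3 kb into the gene, ranked 3153, 3906 and 5295 in WT and 6984, 10212 and 7472 in Pbrm1 cKO (-1.01 ± 0.39, adjusted p = 0.219, limma). A small region beside the start, at chr9:116174398-116174634, ranked 24476, 20795 and 27111 in WT and 52900, 52559 and 35506 in Pbrm1 cKO (-0.95 ± 0.30, adjusted p = 0.149). The main start region next to it overlapped between genotypes, with a difference of 0.14 ± 0.41. Another intronic region, at chr9:116091096-116091749, was in the WT list only. It ranked 35702 to 46844 in WT and 61168 to 62182 in Pbrm1 cKO (-0.54 ± 0.16, adjusted p = 0.136, limma). The strongest of them is printed here, chr9:116152930-116153229 on the + strand, because it ranked with the receptor start regions. It held 2 TGANTCA matches, TGAATCA and TGACTCA, and no CAGAC.
Tgfbr2 +22.3 kb: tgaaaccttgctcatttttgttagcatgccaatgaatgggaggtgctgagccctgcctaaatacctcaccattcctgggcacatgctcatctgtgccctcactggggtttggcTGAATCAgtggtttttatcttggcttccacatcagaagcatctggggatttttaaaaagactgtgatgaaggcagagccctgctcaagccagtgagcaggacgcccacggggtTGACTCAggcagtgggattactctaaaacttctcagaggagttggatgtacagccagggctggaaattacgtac

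An unadjusted p under 0.05 was found for 4 of the 60 regions at starts (6.67%), against 12.4% of all regions within 1 kb of any annotated start, and for 27 of the 141 in introns (19.1%), against 17.8% of all intronic regions. The lower share at starts was thus seen over the whole series, and its size was not tested among the members. A region within 1 kb of an annotated start was found for 40 of 44 members (90.9%), against 62.8% of 21938 protein-coding genes. None of the 40 best-ranked start regions passed on log2 ranks, against 0.0436% of the best start regions of all protein-coding genes, and 2 (5%) had an unadjusted p under 0.05, those of Smad2 and Tgfb3, against 8.98% of the latter. Genotypes did not overlap at 3 of the 40 (7.5%), against 13.6% over all protein-coding genes, so the members did not exceed the background. The 3 were Smad2, Ltbp1 (lower, -0.78 ± 0.37) and Tgfb2 (lower, -0.43 ± 0.32). At 8 of the 40 the region lay over 1 kb from the first start of the gene and met the rule through a start of a shorter transcript. These were Tgfb1, Bmp4, Acvrl1, Eng, Amhr2, Smad7, Fst and Ltbp3.

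**Figure D5:**
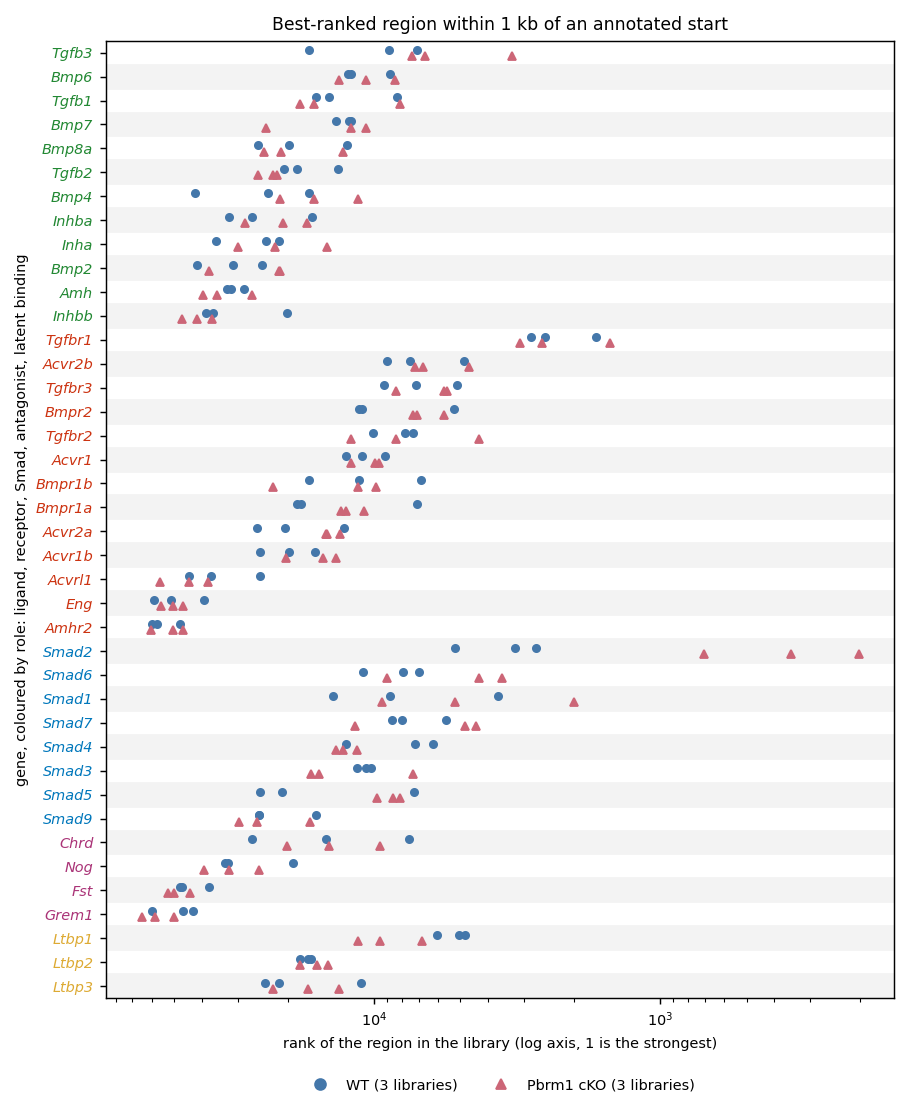
Rank in each library (log x axis, strongest to the right) of the best-ranked region within 1 kb of an annotated start for the 40 genes that had one, grouped and coloured by role and ordered by mean rank, with circles for WT and triangles for Pbrm1 cKO. Smad2 is the gene whose symbols are widest apart, Tgfbr1 holds ranks of 1496 to 3106 in both genotypes, and Amhr2, Eng and Grem1 lie at the weak end.

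Among receptors, Tgfbr1, the type I receptor for TGF-βs, had the strongest start region. Its ranks were 2540, 2841 and 1678 in WT and 1496, 3106 and 2602 in Pbrm1 cKO, and the genotypes overlapped with a difference of 0.00058 ± 0.50. Acvr2b, an activin type II receptor, followed at 7519, 9014 and 4851 in WT and 4684, 7198 and 6752 in Pbrm1 cKO. At the other end were the co-receptor Eng, at 39438 to 58760 over the 6 libraries, and Amhr2, the receptor of anti-Müllerian hormone, at 46578 to 60490. The Amhr2 region lay 5521 bp from the first start of the gene, so the first start itself had no region. The 250 bases before the start of the strongest and of the weakest receptor are shown from RefSeq (GRCm38.p6, + strand, chr4:47352972-47353221 and chr15:102445117-102445366) with each CpG in capitals.
Tgfbr1: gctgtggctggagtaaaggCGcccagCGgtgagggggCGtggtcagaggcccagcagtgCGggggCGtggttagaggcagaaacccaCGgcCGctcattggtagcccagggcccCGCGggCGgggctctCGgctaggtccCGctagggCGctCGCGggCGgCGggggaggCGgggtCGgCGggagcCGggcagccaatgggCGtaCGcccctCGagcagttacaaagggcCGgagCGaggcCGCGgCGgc
Amhr2: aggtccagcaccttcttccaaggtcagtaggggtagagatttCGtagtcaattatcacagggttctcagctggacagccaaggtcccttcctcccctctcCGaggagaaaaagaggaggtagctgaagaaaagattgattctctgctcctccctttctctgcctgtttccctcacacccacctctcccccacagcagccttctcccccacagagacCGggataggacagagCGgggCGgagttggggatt
The Tgfbr1 sequence held 29 CpGs and that of Amhr2 held 5. Over the 32 members matched in the RefSeq promoter table, windows of 300 bases held 3 to 54 CpGs, with a median of 7 over all 32851 promoters in the table. Over the 18 members whose window overlapped their start region, strength had no clear relation to CpG number. The 9 better-ranked had a median of 27 CpGs and the other 9 a median of 31. The Spearman correlation of mean rank with CpG number was -0.212, opposite in direction to these medians, and it was not tested. The 3 matched members without a start region had a median of 4, with 4 for Bmp5, 3 for Bmp10 and 23 for Bmp8b. The Acvr2a window, with 54, belonged to a region of mean rank 16894.

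Among ligands, Tgfb3 had the strongest start region, at 7117, 8887 and 16934 in WT and 3290, 6638 and 7379 in Pbrm1 cKO (0.91 ± 0.43, adjusted p = 0.308, limma). Bmp6 followed at 8446 to 13270 over the 6 libraries. Tgfb1 stood at 8125 to 18241 and Tgfb2 at 13404 to 25550. The start region of Inhbb, which encodes an activin β subunit, was the weakest, at 20136 to 47164. No region lay within 1 kb of a start of Bmp3, Bmp5, Bmp8b or Bmp10. In the relaxed lists the Bmp3 start had an entry in each of the 6 libraries with best −log10 p of 6.37 to 13.8, and the Bmp8b start likewise with 2.96 to 6.39. The Bmp10 start had an entry in 2 WT libraries, at 4.03 and 3.81, and the Bmp5 start in none. A start without an entry was below the threshold of that list and was not shown to be closed. Bmp5 was also the only ligand without a region in both conservative lists, with 1 in each. Its intronic region in the WT list, at chr9:75781663-75782024, ranked 51276, 32580 and 29214 in WT and 65347, 57391 and 56802 in Pbrm1 cKO (-0.71 ± 0.22, adjusted p = 0.145). The Bmp8b window held 1 region, downstream of the gene with the start of Ppie nearest, at ranks of 884 to 2301 in WT and 1642 to 4917 in Pbrm1 cKO.

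Smad2, the TGF-β and activin effector, had a single region, and it covered the start of the gene (chr18:76240942-76241981). It ranked 3215, 5237 and 2717 in WT and 703, 349 and 203 in Pbrm1 cKO. All Pbrm1 cKO libraries placed it among their 703 strongest regions, above every WT library. The summit fold over background was 16.9, 15.0 and 15.2 in WT and 20.8, 24.4 and 22.2 in Pbrm1 cKO, so the separation in fold was smaller than that in rank. The difference in rank score was 3.28 ± 0.64, number 7 from the highest of all 66679 regions, but it did not pass (adjusted p = 0.0721, limma).

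All 8 Smads had a start region, and their median of mean ranks, 8926, was stronger than that of receptors (13155) and ligands (21210). After Smad2, the inhibitory Smad6 ranked 7920, 6988 and 10918 in WT and 4304, 9029 and 3584 in Pbrm1 cKO, with overlap. Smad1, Smad7, Smad4, Smad3 and Smad5 followed, with mean ranks of 7178 to 13324. Smad9, a BMP effector, was the weakest at 16020 to 29804. Smad4, the partner of all receptor-regulated Smads, ranked 6236, 12581 and 7182 in WT and 12875, 13580 and 11447 in Pbrm1 cKO (-0.61 ± 0.36, adjusted p = 0.433, limma). Smad3 had 15 regions, 13 of them in introns. Of these 15, 12 were in both lists and 3 in the WT list only, 11 ranked lower in Pbrm1 cKO, and none had an unadjusted p under 0.05.

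The secreted antagonists had the weakest starts, with a median of mean ranks of 38436. Chrd, which encodes chordin, ranked 26739, 14782 and 7539 in WT and 20241, 9580 and 14418 in Pbrm1 cKO. Nog, which encodes noggin, ranked 19182 to 39447, Fst (follistatin, which binds activins) 37659 to 52676 and Grem1 (gremlin) 43048 to 64908. The best start regions of Fst and Grem1 were in the Pbrm1 cKO list only, yet their mean ranks were weaker in Pbrm1 cKO, 48918 against 44218 for Fst and 57664 against 49841 for Grem1. List membership and rank therefore pointed in different directions at both genes, and the genotypes overlapped in each.

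The latent binding proteins had many regions for 3 genes. Ltbp1, of 387 kb, had 33, of which 25 were in both lists, 5 in the Pbrm1 cKO list only and 3 in the WT list only. Its differences ran both ways, with 16 higher and 17 lower. The Ltbp1 start ranked 5042, 4826 and 6046 in WT and 11368, 6819 and 9559 in Pbrm1 cKO, without overlap (adjusted p = 0.317, limma). Ltbp2 ranked 14500 to 18153 and Ltbp3 11116 to 24156, both with overlap. Tgfbr3, the co-receptor betaglycan, came second in number with 21 regions, 17 of them in both lists, and its start ranked 5139 to 9214. Together with Acvr1, Smad3 and Bmpr1b, Ltbp1 and Tgfbr3 held 101 of the 275 regions.

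In the relaxed lists, the windows of the 44 genes held 767, 807 and 769 distinct intervals in WT and 798, 797 and 831 in Pbrm1 cKO. The means were 781 ± 22.5 and 809 ± 19.3 (SD, n = 3 each), and the genotypes overlapped. Among the 100000 best intervals of each library the numbers were 384, 386 and 391 in WT and 410, 410 and 402 in Pbrm1 cKO. These did not overlap and differed by 20.3, a difference that was not set against other genes. No p is given for these sums, since the members were chosen with earlier results of these data known. By gene, the numbers of distinct intervals in the full lists did not overlap between genotypes at 3 of 44 (6.82%), near the background of 7.73% of protein-coding genes with an interval. Of these 3, Bmpr1b had 42, 43 and 45 intervals in WT and 48, 57 and 53 in Pbrm1 cKO. Acvrl1 had 13 to 14 against 15 to 16, and Fst 10 to 13 against 8 to 9.

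The rest of the pathway gave no region past the test on log2 ranks. The lists held 17 other ligands, 7 other receptors and co-receptors (6 matched), 21 other antagonists and extracellular regulators, 12 intracellular regulators and 24 target genes, with 39, 26, 121, 50 and 124 regions. On normal scores 3 of the 360 regions (0.833%) passed, all lower in Pbrm1 cKO, which was below the 2.33% of all regions (1.33% lower) on that scale. The start region of Lefty1, an inhibitor of Nodal signalling, ranked 19536, 21009 and 9876 in WT and 49934, 40003 and 54406 in Pbrm1 cKO (adjusted p = 0.00917, limma on normal scores). A region of the BMP and Wnt antagonist Sostdc1 ranked 26520 to 38760 against 61060 to 61893 (adjusted p = 0.0293). An intronic region of Smurf1, a ubiquitin ligase that targets Smads and receptors, ranked 19311 to 27964 against 47796 to 62952 (adjusted p = 0.0180). The Sostdc1 and Smurf1 regions were in the WT list only, so their selection favoured a higher rank in WT, while the Lefty1 region was in both lists. The target list shares Acta2 and Tagln with the smooth muscle markers and Col1a1 with the fibroblast markers, and the list of antagonists and regulators shares Dcn with the latter. None of the 124 regions at target genes, which include the Id genes, passed on either scale, and 15 of them (12.1%) had an unadjusted p under 0.05. This share was 28.0% for intracellular regulators, 25.6% for other ligands, 15.4% for other receptors and 10.7% for other antagonists and extracellular regulators, against 15.9% of all regions. Of the 6 best start regions of other ligands, 5 had such a p, and 4 did not overlap between genotypes. Over all protein-coding genes these shares were 8.98% and 13.6%. The 5 ran both ways, with Gdf9 and Gdf11 higher in Pbrm1 cKO and Gdf6, Gdf10 and Lefty1 lower. In each of the other pathway lists 1 best start region had such a p.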

How the data were processed

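ATAC-seq was described from 3 WT and 3 Pbrm1 cKO libraries, grouped by their labels. The authors processed reads with the ENCODE ATAC-seq pipeline on GRCm38 and called peaks with MACS2. The lists deposited by the authors hold the fold enrichment of each summit (a ratio), −log10 p, −log10 q and a score, derived from −log10 p in the relaxed lists (p of 0.01, at most 300000 entries) and from the IDR in the conservative ones. No table of read counts was used, so ranks replaced the authors' read-based test. A peak list gives no total depth, and tags per summit were recovered from fold and p.

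The conservative lists, 1 per genotype, were merged with bedtools 2.31.1 (overlap of 1 bp or more) into 66679 regions. Regions without an entry in a library shared the mean of its lowest ranks. limma 3.58.1 (R 4.3.3; empirical Bayes with a trend) was fitted to all regions, 3 against 3, without covariates. The fit was tested on simulated data with known changes. Sequences came from the GRCm38.p6 genome and RefSeq promoters. The labels do not say whether replicates were separate animals; the study's supplement calls them biological, and p-values measure the spread between these libraries.

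Named regions were those past the threshold, the 10 with the smallest p, the 5 with the largest difference among regions whose genotypes did not overlap, and those past it on normal scores; named starts were the 2 strongest and the weakest of each role, the 5 genes with the most regions and any gene without one. Other genes named were chosen after their values were seen. The members and lists were chosen with earlier results of these data known. Alternatives were normal scores, ranks by fold, filters, leaving out libraries, a replicate block, other windows and a stricter IDR.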

Additional observations from a re-analysis of the deposited data

How the results depend on the processing

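The single call on log2 ranks, 1 region higher and 0 lower in Pbrm1 cKO, was the least stable result. Normal scores gave 2 higher and 3 lower, and a replicate block gave 2 higher and 1 lower, adding the Smad2 start (adjusted p = 0.0404, limma) and the Bmpr1a region at +55.5 kb (0.0440). Ranks by fold, regions above the median mean score, and members outside chromosome 14 (added after seeing the data) gave 0 higher, and leaving out each library in turn gave 0 to 0 higher and 0 to 0 lower. In further fits added after seeing the data, ranking by fold and then taking normal scores left 1 higher and 2 lower, normal scores with a replicate block 2 higher and 2 lower, and normal scores without 1 library 1 to 3 higher and 0 to 3 lower. The causes were not tested, except that the Bmpr1a region is not above that median. The replicate numbers did not pair the samples, since same-numbered libraries correlated at -0.0029, -0.055 and 0.0091. The median over all 275 regions was -0.024 with ranks by fold, against 0.048. Regions whose nearest start was the member's numbered 130 in both lists, 17 in the WT list and 30 in the Pbrm1 cKO list, fewer by construction. With an IDR of 0.01 or 50% overlap, the list counts stayed within 1.5 times. The 12 regions named kept their direction in all of their refits. Their ranks did not overlap between genotypes, so among these refits only ranking by fold could have reversed a direction. Whether the fewer tags per summit in WT library 3 limited its weak regions was not tested.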
